A study of Mus musculus with 12 samples.

Results

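Rab GTPases and TBC1D proteins, many of which switch Rabs off, were followed in ID8 cells with and without cisplatin. These cells come from mouse ovarian surface epithelium and form ovarian tumours. The members were the protein-coding genes whose symbol is Rab or Tbc1d followed by a number, together with the ac4C peaks assigned to them. This gave 75 genes of the 14852 in the expression table, of which 48 were Rab genes and 27 were TBC1D genes. Of 19049 ac4C peaks, 91 lay in 54 of these genes.

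Rab proteins are small GTPases of the Ras superfamily that mark the membranes of the secretory and endocytic pathways, each on its own set of compartments. In the GTP-bound form they recruit effectors such as tethers and motor adaptors, and exchange factors (GEFs) load the GTP. Many TBC domain proteins are GTPase-activating proteins (GAPs) that speed up hydrolysis of the GTP. Escort protein and geranylgeranyl transferase add the lipid that anchors a Rab in its membrane. In epithelial tumour cells this system is known for setting the delivery and recycling of receptors and adhesion molecules, and for feeding autophagy and lysosomes.

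The study asked how N4-acetylcytidine (ac4C), a base modification that the enzyme NAT10 writes into RNA, acts when cells meet cisplatin, a platinum drug that crosslinks DNA. Control and cisplatin-treated ID8 cells each gave 3 input libraries and 3 libraries precipitated with an antibody against ac4C (IP), 12 in all. No genotype, transgene or host animal is named in the labels, and the sources used here give no dose, exposure time or origin of the replicates, so p-values measure only the spread between these libraries. The 6 input libraries held 20682920 to 30159427 fragments in listed genes, as recovered from FPKM. Keratin and mesothelial genes of the line's origin were present, with 8 of 10 at 1 FPKM or more. Their summed level was 2097 to 2129 FPKM in control and 2956 to 3304 FPKM in cisplatin libraries, with Krt8 going from 587 to 967 FPKM. Wt1 went from 45.1 to 12.4 and Upk3b from 81.6 to 61.1 FPKM, Epcam was not listed and Krt7 was at 0.178 and 0.0105 FPKM. Of 7 leukocyte markers only Cd68 was listed, at 2.22 to 2.57 FPKM in control and 7.50 to 9.72 FPKM in cisplatin libraries. Of 6 fibroblast markers 4 were listed, summing to 23.7 to 24.6 and 17.1 to 18.7 FPKM. No endothelial or red cell marker was listed, and 2 of 4 neuron and melanocyte markers summed to at most 3.40 FPKM. The part of these shifts in the results on Rab and TBC1D genes was not tested. In bulk RNA, fewer cells with a transcript and less of it per cell cannot be told apart.

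In input RNA, Rab and TBC1D genes were lower in cisplatin more often than higher. Levels are in FPKM (fragments per kilobase of transcript, scaled to sequencing depth), and changes are of log2(FPKM + 1), cisplatin minus control, which understates the change of low genes. A gene was tested if it had at least 1 FPKM in 3 of the 6 libraries, and 64 members were. With limma at an adjusted p under 0.05, 34 of the 64 members fell and 13 rose, while 17 did not pass. Over all 11449 genes tested 81.3% passed, 40.1% higher and 41.1% lower, so passing was common and the members passed no more often than other genes. The 41 tested Rab genes split into 10 higher, 22 lower and 9 not called, with a median change of -0.26. The 23 tested TBC1D genes split into 3 higher, 12 lower and 8 not called, with a median of -0.21. The median over all genes was -0.0028. The 2 groups of libraries did not overlap for 49 of the 64 members, against 84.2% of all tested genes. Of the calls, 3 higher and 13 lower members of the 64 changed at least 2-fold in mean FPKM. Over all 11449 genes tested, 1454 higher and 1768 lower calls did so. The 3 higher members were Rab40c, Rab29 and Tbc1d2.

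**Figure D1:**
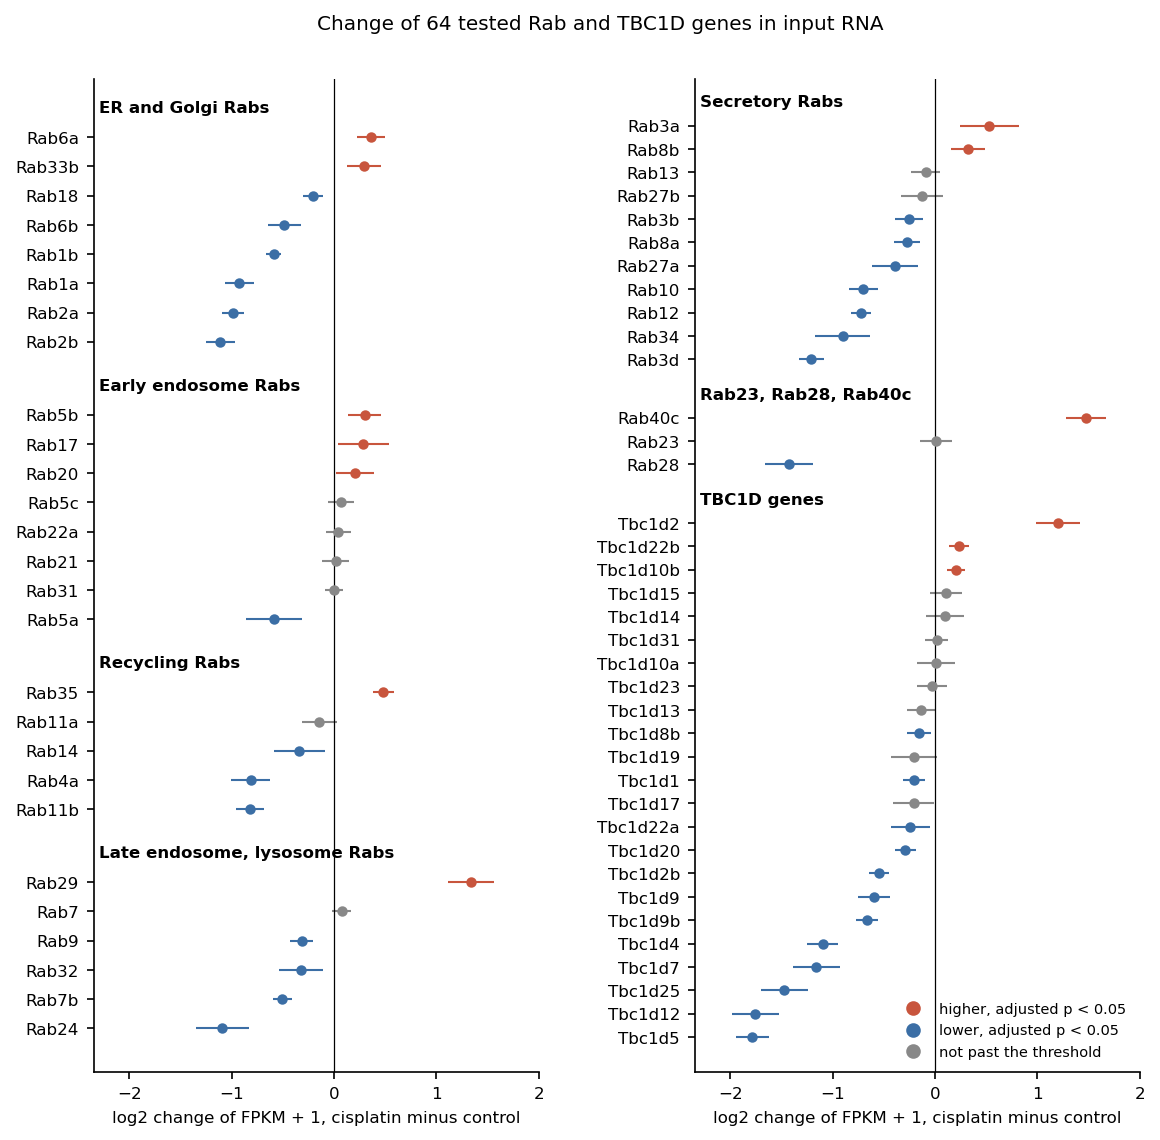
Log2 change of FPKM + 1, cisplatin minus control, of the 64 tested members in input RNA, grouped by role; points are estimates from 3 against 3 libraries and bars their 95% confidence intervals from limma. Both directions occur in each group of Rabs, and the lowest values on this scale belong to Tbc1d5 and Tbc1d12 at -1.79 and -1.76.

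The members' promoters were searched for 13 short motifs, because members that move together may share sequence next to their start. RefSeq promoters on GRCm38.p6, running from 250 bases before to 50 after a start site, matched 61 of the 75 members. The E-box TCACGTG, the core of the CLEAR element that TFE-family factors bind at lysosomal genes, was singled out after the counts were seen and was not tested. It was present in 9 of 61 members (14.8%), in 7.56% of 7925 tested protein-coding genes and in 3.77% of all 32851 promoters of the table. By input result it was in 0 of 13 members that rose, 4 of 30 that fell, 5 of 13 that did not pass and 0 of 5 that were not tested. The windows below show the matches with 10 bases on either side, read 5′ to 3′ along the gene's strand with the match in capitals, and a match in the other orientation reads CACGTGA. Palindromic sites match on both strands and are shown once. The window of Tbc1d15 stops at the end of its promoter.
Rab21: cccaccgcggTCACGTGacgaggggtg
Rab23: tcagtgctacCACGTGAgtctcaggtg
Rab24: ggcgcccgcgTCACGTGaccgggcgtc
Rab5a: cccggggatgTCACGTGacttcggccc
Rab5a, other site: ttggagaagaCACGTGAcgcaacccca
Tbc1d13: gaagtccccgTCACGTGacccttgggc
Tbc1d14: taacctgcgcTCACGTGtacccctaaa
Tbc1d15: gtccgagagcCACGTGAggttgt
Tbc1d20: gaaacgtaggTCACGTGggggcgtggc
Tbc1d5: gggagcgtggTCACGTGgccgctggtc

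The Rab windows lie at chr10:115315606-115315632 on the minus strand (Rab21), chr1:33719668-33719694 on the plus strand (Rab23) and chr13:55321963-55321989 on the minus strand (Rab24). Rab5a holds its sites on the plus strand, at chr17:53479128-53479154 and chr17:53478989-53479015. The TBC1D windows lie at chr2:30133702-30133728, plus strand, for Tbc1d13 and chr5:36582515-36582541, minus strand, for Tbc1d14. Those of Tbc1d15, Tbc1d20 and Tbc1d5 lie at chr10:115251444-115251466 (minus), chr2:152293812-152293838 (plus) and chr17:51179315-51179341 (minus). The match of Tbc1d20 begins 6 bases before the start site and that of Rab23 begins 218 bases before it. A match is a stretch of letters and not a bound site. The other motifs, searched on both strands, were the E-box CACGTG (which TCACGTG contains), AP-1 TGANTCA, CRE TGACGTCA, the CCAAT box CCAAT, the GC box GGGCGG and ETS CCGGAAGT. The last 6 were TATAAA (the TATA box), E2F TTTCGCGC and, by name, the NRF1, ZBTB33-type and ZNF143-type motifs and the p53 core pair. The GC box was in 75.4% of members and 72.4% of tested coding genes, the CCAAT box in 44.3% and 43.2%, and the plain E-box in 21.3% and 12.4%. Each of the other motifs was in at most 5 of the 61 members.

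Rabs of the endoplasmic reticulum and Golgi were lower in cisplatin in 6 of 8 tested cases and higher in 2, with a median change of -0.54. Rab1a and Rab1b, which drive transport from the endoplasmic reticulum to the Golgi, both fell. Rab1a (chr11:20201412-20226856) measured 60.6, 66.7 and 67.1 FPKM in control and 32.4, 32.2 and 36.2 FPKM in cisplatin libraries. The groups lay far apart, with a log2 change of -0.93 ± 0.06 (SE; limma adjusted p = 5.00e-06). Rab1b was at 53.6, 56.2 and 55.7 FPKM in control and at 36.4, 36.4 and 36.2 FPKM in cisplatin, a change of -0.59 ± 0.03 (limma adjusted p = 1.92e-06).

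Rab2a, which acts between Golgi and endoplasmic reticulum and in the fusion of autophagosomes with lysosomes, also fell. Its levels were 40.3, 41.8 and 41.3 FPKM in control and 19.0, 20.6 and 21.2 FPKM in cisplatin libraries, a change of -0.99 ± 0.05 (SE; limma adjusted p = 1.06e-06). Its near paralogue Rab2b, named after its values were seen, went from 342 fragments over the 3 control libraries to 9 over the 3 cisplatin libraries, where replicate 2 held none. In FPKM that was 1.16 to 1.29 against 0 to 0.0791. Rab6b, the less abundant form of the Golgi Rab6, fell by 0.49 and Rab18, which sits on the endoplasmic reticulum and lipid droplets, fell by 0.21.

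Rab6a, the main Rab of retrograde traffic at the Golgi, moved the other way. It measured 20.5, 23.3 and 23.0 FPKM in control and 27.7, 28.5 and 30.4 FPKM in cisplatin libraries, with all cisplatin values above all control values (change 0.36 ± 0.06 SE, limma adjusted p = 7.57e-04). Rab33b, a Golgi Rab that also binds the autophagy factor ATG16L1, rose from 3.30 ± 0.36 to 4.25 ± 0.04 FPKM (SD, n = 3 each), a log2 change of 0.29. Rab30, Rab39b and Rab43 were too low to test, with at most 0.150 FPKM in either group mean.

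Early endosome Rabs differed in direction from gene to gene, with 3 higher, 1 lower and 4 not called of 8. Rab5c, the most abundant Rab5 isoform, was at 49.6, 50.5 and 49.4 FPKM in control and 50.2, 56.8 and 50.1 FPKM in cisplatin libraries. These ranges overlap, and the change of 0.07 ± 0.05 (SE) did not pass (limma adjusted p = 0.257). Rab5a, which drives fusion of early endosomes, fell from 15.2, 15.4 and 16.4 FPKM to 9.20, 8.96 and 12.5 FPKM, a change of -0.59 ± 0.11. Rab5b rose from 6.65, 7.38 and 6.91 FPKM to 9.05, 8.04 and 9.35 FPKM, a change of 0.30 ± 0.07 (limma adjusted p = 0.00421). The Rab5 sum was nearly level, at 72.5 ± 0.95 FPKM in control and 71.4 ± 2.73 FPKM in cisplatin (SD, n = 3 each), while the isoforms inside it moved apart.

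Rab20, a Rab of phagosomes and endosomes, measured 6.39, 5.65 and 6.11 FPKM in control and 6.59, 8.0 and 6.81 FPKM in cisplatin libraries. The groups lie close together without overlapping, and the rise of 0.20 ± 0.08 passed narrowly (limma adjusted p = 0.0446). It did not pass under 9 of the alternatives, among them the replicate block (adjusted p = 0.0808) and without cisplatin replicate 2 (0.101). Rab17, known from transcytosis in epithelia, rose from 1.35 ± 0.08 to 1.88 ± 0.42 FPKM (SD, n = 3), and its call was lost under 7 alternatives, without cisplatin replicate 2 among them (adjusted p = 0.0519). In the authors' deposited table neither Rab20 (authors' adjusted p = 0.164) nor Rab17 (0.0985) passed 0.05. Rab21, which carries integrins, was at 18.7 ± 0.67 and 18.9 ± 1.30 FPKM. Rab22a was at 7.30 ± 0.38 and 7.54 ± 0.08 FPKM, and Rab31 at 27.5 ± 0.35 and 27.4 ± 0.91 FPKM. The 95% interval of each of these 3 log2 changes included 0.

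Recycling Rabs were lower in 3 of 5 tested cases. Rab11b, which acts on the slow recycling compartment, measured 11.8, 11.8 and 11.96 FPKM in control and 6.53, 6.54 and 5.72 FPKM in cisplatin libraries. The drop was -0.82 ± 0.06 (SE; limma adjusted p = 7.17e-06), whereas Rab11a at 6.72 ± 0.69 and 5.97 ± 0.15 FPKM (SD, n = 3) did not pass (adjusted p = 0.102). Rab11a did pass without control replicate 1 (change -0.21, limma adjusted p = 0.0257), rescaled to a common FPKM sum (-0.23, 0.0207) and with limma-voom (-0.23, 0.0350). Rab4a, of the fast recycling route, fell from 3.38 to 4.26 FPKM in control to 1.60 to 1.73 FPKM in cisplatin libraries. Rab14 fell from 5.16 ± 0.06 to 3.90 ± 0.73 FPKM (SD, n = 3), but the call was lost without control replicate 1 (adjusted p = 0.0501) or 3 (0.0560). It passed in the authors' deposited table (authors' adjusted p = 1.28e-04).

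Rab35, which controls fast recycling and actin at the plasma membrane, rose. It measured 18.4, 18.2 and 19.1 FPKM in control and 26.7, 27.1 and 25 FPKM in cisplatin libraries, a clear gap between the groups (change 0.48 ± 0.04 SE, limma adjusted p = 2.65e-05). Rab4b was not tested, at 0.0530 and 0.166 FPKM.

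Among late endosome and lysosome Rabs, 4 of 6 tested genes fell and 1 rose. Rab7, the main Rab of late endosomes and lysosomes and the most abundant Rab over the 6 libraries, was at 56.7, 58.1 and 59.3 FPKM in control and 61.9, 63.5 and 58.2 FPKM in cisplatin libraries. The groups overlap and the change of 0.07 ± 0.04 did not pass (limma adjusted p = 0.127), although it did without cisplatin replicate 3 (0.11, adjusted p = 0.0148). Rab7b, which acts from late endosomes to the Golgi, fell from 14.5 ± 0.44 to 9.93 ± 0.09 FPKM (SD, n = 3). Rab9, which returns mannose 6-phosphate receptors, fell from 22.7 ± 0.54 to 18.1 ± 1.04 FPKM, and Rab32, of lysosome-related organelles, from 4.32 ± 0.26 to 3.27 ± 0.46 FPKM.

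Rab24, an atypical Rab linked to autophagy, fell from 10.99, 13.1 and 11.1 FPKM in control to 4.94, 4.19 and 5.81 FPKM in cisplatin libraries. Every cisplatin value was below every control value (change -1.09 ± 0.11 SE, limma adjusted p = 5.30e-05). Rab29, a substrate and recruiter of the kinase LRRK2 at Golgi and lysosomes, rose 3.05-fold in mean FPKM. It measured 3.02, 2.29 and 3.15 FPKM in control and 8.44, 9.04 and 8.31 FPKM in cisplatin libraries, with a log2 change of 1.34 ± 0.09 (limma adjusted p = 7.94e-06). Rab36 was not tested, with 179 fragments in control and 29 in cisplatin libraries, and Rab38 had 3 and 1.

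Rabs listed here as secretory, Rab12 and Rab34 among them, fell in 7 of 11 tested cases and rose in 2. Rab3d, of secretory granules, measured 5.67, 5.84 and 5.89 FPKM in control and 1.91, 1.98 and 1.92 FPKM in cisplatin libraries. The libraries of each group were close together and the groups far apart (change -1.21 ± 0.05 SE, limma adjusted p = 7.38e-07). Rab12, linked to the degradation of transferrin receptor, fell from 48.3, 48.5 and 47.9 FPKM to 28.7, 27.3 and 30.4 FPKM, a change of -0.73 ± 0.04.

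Rab10, which delivers vesicles to the basolateral membrane and carries GLUT4, fell from 29.5 ± 1.25 to 17.7 ± 1.36 FPKM (SD, n = 3). Its 3′ end overlaps the noncoding gene Rab10os over 2947 bases. Rab34, of cilia and lysosome positioning, fell from 8.13, 10.04 and 10.5 FPKM to 4.52, 4.05 and 5.36 FPKM (change -0.90 ± 0.11 SE). Rab8a, of exocytosis and cilium growth, fell by 0.28 while Rab8b rose by 0.32. Rab3b and Rab27a, both of regulated secretion, fell by 0.26 and 0.39.

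Rab3a, the synaptic vesicle Rab, rose from 0.914 ± 0.198 to 1.77 ± 0.41 FPKM (SD, n = 3; limma adjusted p = 0.00499), a low level in both groups. Rab13, of tight junctions, was at 5.52 ± 0.37 and 5.11 ± 0.21 FPKM, and Rab27b, of secretory lysosomes and exosomes, at 10.4 ± 0.75 and 9.42 ± 1.12 FPKM, and neither passed as tested. Rab13 passed with libraries rescaled to a common FPKM sum (limma adjusted p = 0.0296). Rab27b passed so rescaled (0.0420), with limma-voom (0.0240) and without cisplatin replicate 3, where its change was -0.22 (0.0210). Rab37 was not tested: 147 control fragments stood against 0 in the cisplatin libraries.

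Rab40c, Rab28 and Rab23 lie outside these routes, and on the log2(FPKM + 1) scale the first 2 had the largest rise and the largest drop of any tested Rab. In mean FPKM, however, Rab2b fell 40.8-fold, on 342 control and 9 cisplatin fragments. Rab40c (ENSMUSG00000025730, chr17:25882114-25919714) carries a SOCS box that recruits a cullin ubiquitin ligase. It rose from 2.42, 2.85 and 2.11 FPKM in control to 8.29, 8.84 and 8.56 FPKM in cisplatin libraries, a log2 change of 1.47 ± 0.08 (SE; limma adjusted p = 2.78e-06). Rab28 (ENSMUSG00000029128, chr5:41624973-41708193), linked to cilia and photoreceptors, fell from 12.3, 13.1 and 13.0 FPKM to 3.87, 3.62 and 5.05 FPKM, a change of -1.43 ± 0.10 (limma adjusted p = 7.75e-06). For both genes the groups were separated by a wide gap, and the authors' deposited table gives log2 changes of 1.80 and -1.62. Rab23, a brake on Hedgehog signalling, was level at 5.33 ± 0.39 and 5.36 ± 0.33 FPKM (SD, n = 3).

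**Figure D2:**
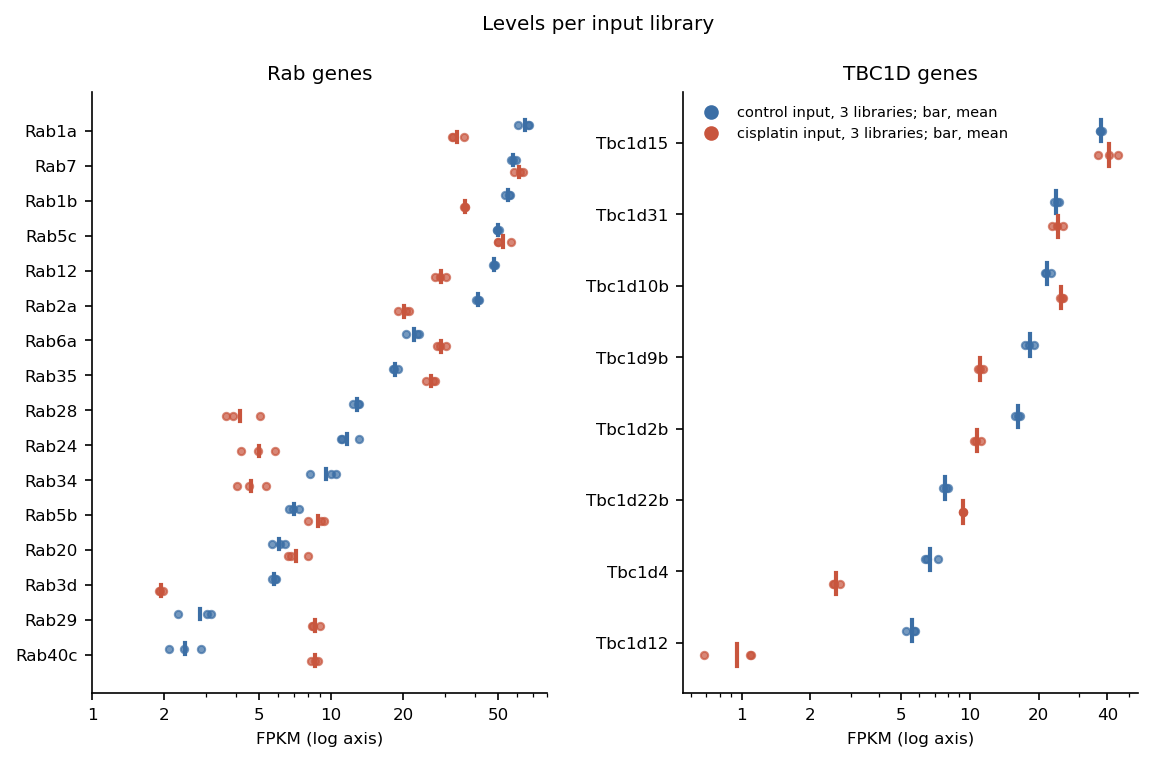
FPKM on a log axis of the members given value by value, for 3 control and 3 cisplatin input libraries; dots are libraries and bars group means. Rab7, Rab5c, Tbc1d15 and Tbc1d31 overlap between the groups, whereas Rab28, Rab3d, Tbc1d4 and Tbc1d12 in cisplatin lie well below every control library.

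Summed over all 48 genes, the Rab level was 683 ± 11.99 FPKM in control and 554 ± 8.23 FPKM in cisplatin (SD, n = 3), a ratio of 0.811. The sum of the endoplasmic reticulum and Golgi group went from 227 ± 5.76 to 156 ± 4.83 FPKM. That of the secretory group went from 141 ± 2.65 to 95.6 ± 4.47 FPKM. Its list includes Rab12, which went from 48.2 to 28.8 in mean FPKM, and Rab34, from 9.57 to 4.64. Of its 11 tested genes 2 rose. In both groups every cisplatin library was below every control library. The early endosome sum was 133 ± 0.31 and 134 ± 2.08 FPKM with overlapping libraries, but as a share of all FPKM it was lower in cisplatin, at 0.0484% against 0.0515%. Early endosome Rabs therefore made up 19.5% of the Rab sum in control and 24.2% in cisplatin libraries, and endoplasmic reticulum and Golgi Rabs 33.3% and 28.1%. The 6 most abundant Rabs, Rab7, Rab5c, Rab1a, Rab1b, Rab12 and Rab2a, held 46.4% of the Rab sum in control and 42.0% in cisplatin.

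**Figure D3:**
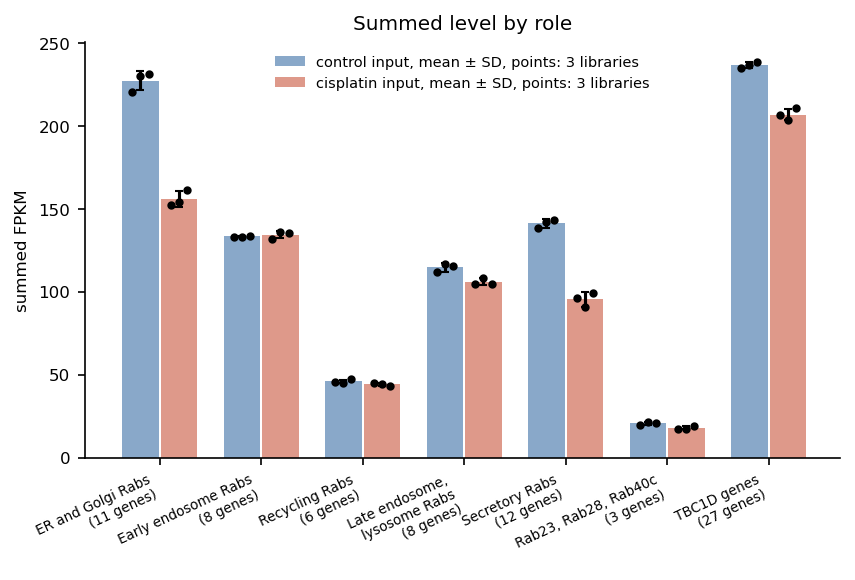
Summed FPKM of each role group of Rabs and of the TBC1D genes; bars are means of 3 libraries with SD, points single libraries, and the axis starts at 0. The endoplasmic reticulum and Golgi sum drops from 227 to 156 FPKM, while the early endosome sums overlap.

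TBC1D genes as a set summed to 237 ± 2.02 FPKM in control and 207 ± 3.51 FPKM in cisplatin (SD, n = 3). Tbc1d15, a GAP for Rab7 that acts at mitochondria and lysosomes, was the most abundant, at 37.2, 37.2 and 37.7 FPKM in control and 40.6, 36.6 and 44.4 FPKM in cisplatin libraries. The groups overlap and the change did not pass (0.11 ± 0.07 SE, limma adjusted p = 0.16), but without cisplatin replicate 2 it did (0.18, adjusted p = 0.00889). Tbc1d31, a centriolar satellite protein, was at 24.1, 23.3 and 24.5 FPKM and 24.0, 22.9 and 25.7 FPKM, also overlapping (adjusted p = 0.805).

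Tbc1d10b, a GAP for Rab35, rose from 22.7, 21.5 and 21.2 FPKM to 24.8, 25.6 and 25.2 FPKM. The step was small but the groups did not overlap (change 0.20 ± 0.04 SE, limma adjusted p = 0.00168). The change was 0.10 with libraries rescaled to a common FPKM sum (adjusted p = 0.0368) and 0.11 with quantile normalization (0.0308). Tbc1d22b rose from 7.99, 7.86 and 7.59 FPKM to 9.38, 9.35 and 9.36 FPKM (change 0.23 ± 0.04, or 0.14 rescaled). These were the only TBC1D genes at 5 FPKM or more that rose.

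Tbc1d12 (ENSMUSG00000048720, chr19:38836579-38919670), a Rab11-binding protein of the recycling endosome, fell from 5.70, 5.27 and 5.77 FPKM to 1.09, 0.685 and 1.10 FPKM. Its change was -1.76 ± 0.10 (SE; limma adjusted p = 2.39e-06), or -2.67 with limma-voom. Tbc1d4, also called AS160, the insulin-regulated GAP of GLUT4 vesicles, fell from 6.37, 6.46 and 7.23 FPKM to 2.70, 2.55 and 2.51 FPKM (change -1.10 ± 0.06). Its relative Tbc1d1 fell less, from 22.5 ± 0.92 to 19.3 ± 0.73 FPKM (SD, n = 3).

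Tbc1d9b, a GAP for Rab11a, fell from 17.5, 18.2 and 19.2 FPKM to 10.9, 11.4 and 11.1 FPKM (change -0.67 ± 0.05 SE). Tbc1d2b fell from 15.8, 16.2 and 16.5 FPKM to 10.7, 11.2 and 10.5 FPKM (change -0.55 ± 0.04). In both genes every cisplatin library was below every control library. Tbc1d20, a GAP for Rab1, fell from 12.7 ± 0.39 to 10.2 ± 0.29 FPKM (SD, n = 3).

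Several TBC1D genes under 5 FPKM were picked out after their values were seen. Tbc1d5 (ENSMUSG00000023923, chr17:50733124-51181199), the retromer-bound GAP for Rab7, fell from 3.98, 3.86 and 3.94 FPKM to 0.503, 0.322 and 0.469 FPKM. The change was -1.79 ± 0.07 (SE; limma adjusted p = 5.03e-07), the lowest of the tested members on the log2(FPKM + 1) scale though not in mean FPKM, where Rab2b fell 40.8-fold and Tbc1d5 9.10-fold. It corresponds to 3514 control and 432 cisplatin fragments. Tbc1d25, an autophagy GAP for Rab33b, fell from 2.54 to 3.37 FPKM in control to 0.363 to 0.552 FPKM in cisplatin libraries. Tbc1d7, the subunit of the TSC complex that restrains Rheb, fell from 2.04 to 2.41 FPKM to 0.259 to 0.560 FPKM.

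Tbc1d2, also called Armus, a Rab7 GAP at cadherin junctions and autophagosomes, rose 4.34-fold in mean FPKM. It measured 0.653, 0.757 and 0.502 FPKM in control and 2.77, 3.10 and 2.42 FPKM in cisplatin libraries (change 1.20 ± 0.09 SE, limma adjusted p = 1.20e-05). Among TBC1D genes that did not pass, Tbc1d10a was at 6.23 ± 0.45 and 6.28 ± 0.62 FPKM (SD, n = 3) and Tbc1d13 at 9.01 ± 0.10 and 8.14 ± 0.70 FPKM. Tbc1d14, Tbc1d17, Tbc1d19 and Tbc1d23 were at 2.58 to 3.86 FPKM in both group means, and of these Tbc1d17 was closest to the threshold (limma adjusted p = 0.0541). Tbc1d17 passed with the replicate block (adjusted p = 0.0451), rescaled, with eBayes without a trend, without cisplatin replicate 2 and with limma-voom. The calls of Tbc1d22a (adjusted p = 0.0273) and Tbc1d8b (0.0217), both lower, were lost when single libraries were left out, with adjusted p up to 0.0940 and 0.0807. In the authors' deposited table Tbc1d17 (authors' adjusted p = 0.0207), Tbc1d22a (0.0236) and Tbc1d8b (0.0192) all passed 0.05. Tbc1d16, Tbc1d24, Tbc1d32 and Tbc1d8 were below the level for testing.

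Within 17 sets of near paralogues with at least 5 FPKM in sum, the share of each gene was compared library by library. The shares did not overlap between the groups in 15 sets and overlapped in 2, Rab22a with Rab31 and Tbc1d10a with Tbc1d10b. Separation of the groups was common in these libraries, with 84.2% of all tested genes not overlapping. Tbc1d12 made up 65.6 ± 1.69% of its set with Tbc1d14 in control and 22.7 ± 2.73% in cisplatin (SD, n = 3), so that Tbc1d14 became the more abundant of the pair. Tbc1d2 went from 3.79 ± 0.77% to 20.4 ± 1.46% of its set with Tbc1d2b. Rab3d went from 36.7 ± 1.42% to 17.4 ± 1.30% of the Rab3 sum, and Rab3b from 57.5 ± 0.73% to 66.8 ± 2.59%.

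Rab11b went from 63.9 ± 2.18% to 51.2 ± 2.43% of the Rab11 sum, which brought Rab11a close to parity. Rab6a gained on Rab6b, from 77.1 ± 2.30% to 86.7 ± 1.23%, and Rab7 on Rab7b, from 80.0 ± 0.22% to 86.0 ± 0.63%. Rab5a lost share in its set, from 21.6 ± 0.86% to 14.3 ± 2.73%. Rab1a went from 54.0 ± 0.83% to 48.0 ± 1.73%, so that Rab1b passed it on average. These shares depend on how the authors' counting split reads between similar copies, on which the sources used here say nothing.

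**Figure D4:**
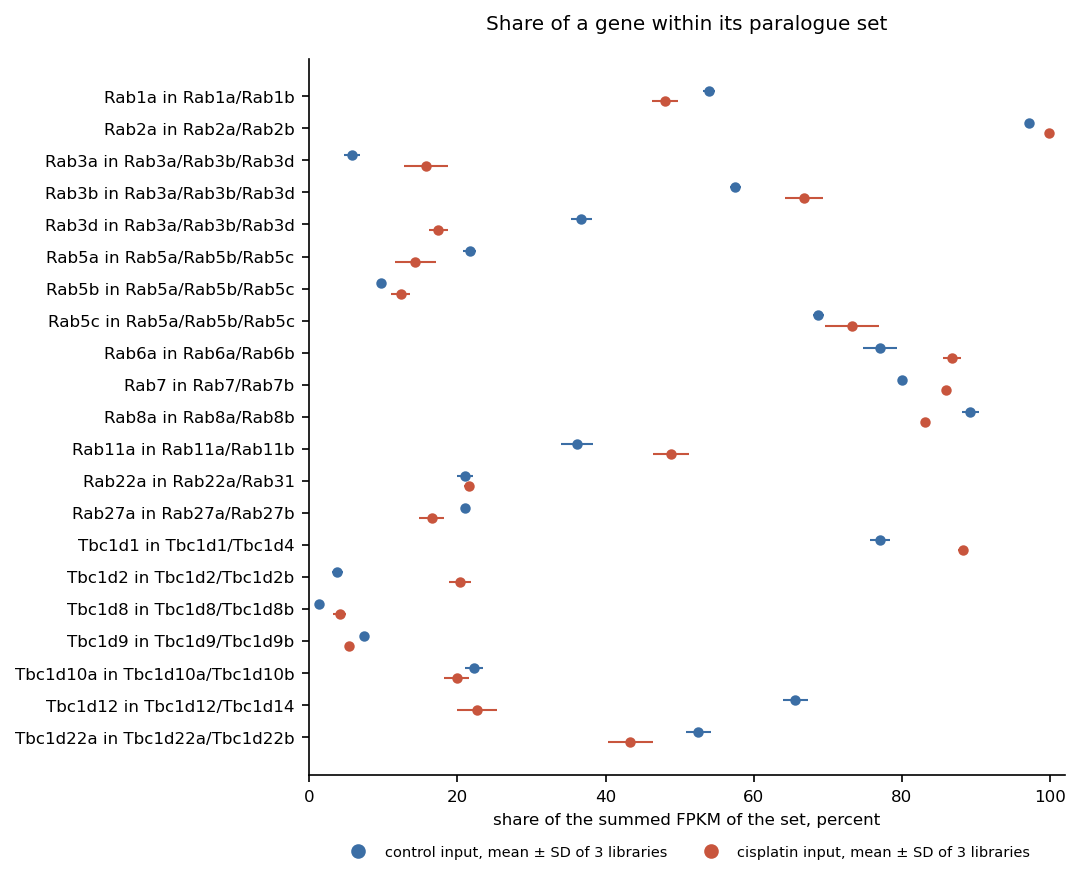
Share of a gene in the summed FPKM of its paralogue set, in percent, for control and cisplatin input libraries; points are means and bars SD of 3 libraries. Tbc1d12 shows the widest gap, 65.6% against 22.7%, and Rab22a and Tbc1d10a show overlapping shares.

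Genes linked to Rabs were read from lists of GEFs, other TBC proteins, the membrane cycle, effectors, kinases and phosphatases, and the TSC complex. Over all 11449 genes tested 41.1% fell and 40.1% rose, with a median change of -0.0028, and no list was tested against these shares. Of 37 tested GEFs, 17 fell, 10 rose and 10 did not pass, with a median change of -0.12. The share of GEFs that fell was close to that of all genes, and the share that passed was below the 81.3% of all genes. Sbf2, a GEF for Rab21, fell from 6.83 ± 0.16 to 1.83 ± 0.05 FPKM (SD, n = 3), and Rin2, a Rab5 GEF, from 19.95 ± 0.80 to 7.23 ± 0.50 FPKM. Dennd2c rose from 0.248 ± 0.036 to 1.74 ± 0.06 FPKM. Of 10 TBC proteins with other names, 8 fell and 2 rose, with a median of -0.29. Rabgap1l fell from 1.77 ± 0.05 to 0.347 ± 0.059 FPKM and Sgsm1 from 2.56 ± 0.22 to 0.662 ± 0.093 FPKM, and Tbck from 3.00 ± 0.15 to 1.30 ± 0.15 FPKM.

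In the membrane cycle 11 of 17 tested genes fell and 5 rose, with a median of -0.21. Yipf2, a Golgi membrane protein that binds Rabs, fell from 12.3 ± 0.62 to 2.26 ± 0.08 FPKM (SD, n = 3). Chm, the escort protein REP1, fell from 4.85 ± 0.05 to 1.45 ± 0.14 FPKM. Of 38 tested effectors, 22 fell and 6 rose, with a median of -0.27. Exoc6b, an exocyst subunit that binds Rab11 and Rab8, fell from 14 ± 0.15 to 3.86 ± 0.06 FPKM. Rilpl1, which binds phosphorylated Rab8 and Rab10, fell from 14.1 ± 0.15 to 4.39 ± 0.12 FPKM. Ehbp1l1, a Rab8 effector, rose from 25.9 ± 0.38 to 49.9 ± 1.26 FPKM.

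In the list of kinases and phosphatases linked to Rabs, 6 genes were tested, and the phosphatase Ppm1h was too low to test. Of the 6, 4 fell (Stk24, Tbk1, Lrrk2 and Pik3c3) and 2 did not pass, with a median of -0.38. Tbk1 fell from 34.1 ± 1.15 to 20.9 ± 1.37 FPKM (SD, n = 3) and Lrrk2, which phosphorylates Rab29 and Rab10 among others, from 1.29 ± 0.03 to 0.392 ± 0.063 FPKM. Stk24 fell from 20.5 ± 0.23 to 13.2 ± 0.21 FPKM. Of the 4 TSC and Rheb genes 3 rose and 1 did not pass, with a median of 0.51. Tsc2 rose from 3.81 ± 0.21 to 6.30 ± 0.14 FPKM and Rheb from 7.90 ± 0.09 to 10.9 ± 0.98 FPKM, Rhebl1 rose from 1.30 ± 0.28 to 7.58 ± 0.74 FPKM, and Tsc1 was at 8.73 ± 0.27 and 9.05 ± 0.61 FPKM. Tbc1d7, the TSC subunit among the members, fell.

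Gene length moved with the change over all coding genes, and its part in the members' results was not tested. By RefSeq span, 30.8% of the shortest tested coding genes (up to 14.4 kb) fell, 35.8% of the middle ones and 56.2% of the longest (over 39.8 kb). Among members 5 of 12, 14 of 25 and 15 of 27 fell in the same classes. The members' median changes were -0.15, -0.28 and -0.21, against 0.20, 0.06 and -0.23 over all coding genes. Tbc1d5 spans 448 kb and Rab24 spans 2.76 kb, and both fell.

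The ac4C peaks of the members came from the authors' peak table, whose fold enrichment (IP over input), log2 difference between treatments and adjusted p are the authors' own, with 1 value per peak over all libraries. The table does not state which treatment a positive log2 difference favours, so signs are given as deposited. At the authors' adjusted p of 0.05, 37 of 91 member peaks were called (40.7%), 30 with a positive and 7 with a negative difference, in 27 genes. Over all peaks 46.2% were called, 36.5% positive and 9.62% negative, so the members' share lay near or below the background. Rab genes held 57 peaks, of which 24 were called, and TBC1D genes 34, of which 13 were called.

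Rab peaks lay in 3′ untranslated regions in 57.9% of cases, against 29.4% of TBC1D peaks and 29.5% of all peaks, a difference that was not tested. Coding sequence held 33.3% of Rab peaks, 17 of 34 TBC1D peaks and 50.5% of all peaks. Of the coding member peaks 21 of 36 were called, beside 5386 of 9624 over all peaks, and in 3′ untranslated regions 9 of 43, beside 2032 of 5614. Rab8b had the most peaks, 5, of which 0 were called.

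**Figure D5:**
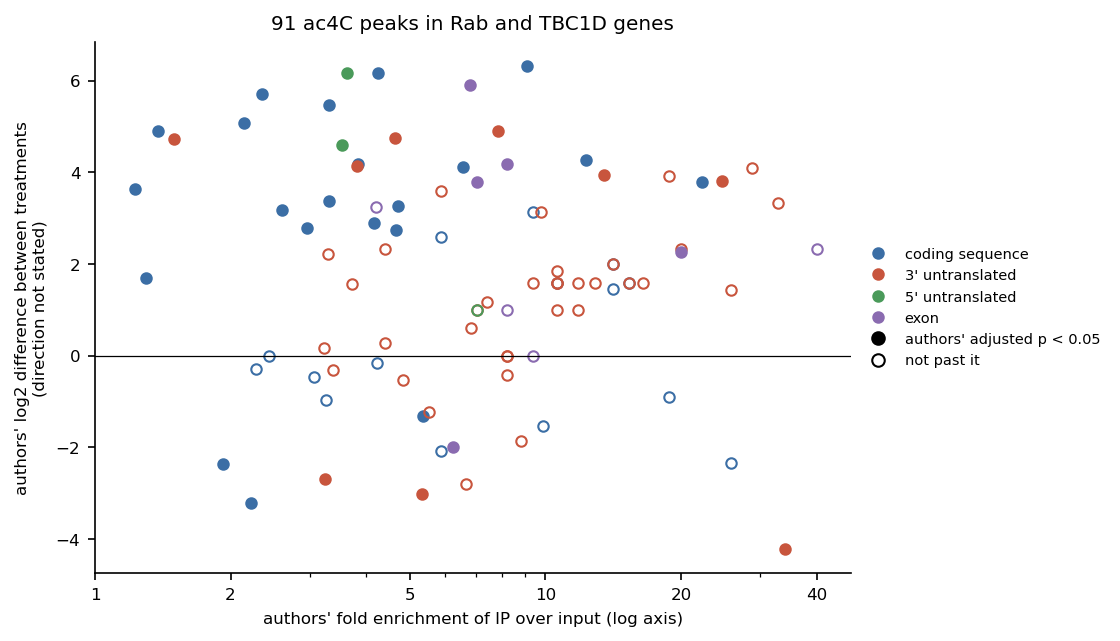
The 91 member peaks by the fold enrichment that the authors give for IP against input (log axis) and the authors' log2 difference between treatments, whose direction is not stated; colours give the annotated region and filled points pass the authors' adjusted p of 0.05. Called points are mostly positive, 30 against 7, and many open points share a few exact values.

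The largest positive difference among the called member peaks was in Rab6b, at chr9:103140421-103162602 in coding sequence, with a log2 difference of 6.32 in the authors' deposited table (adjusted p = 6.31e-24). Coordinates are mm10 outer ends and can span introns. In the authors' deposited table the next were Tbc1d1 at chr5:64281895-64284086 and the 5′ untranslated peak of Tbc1d8b at chrX:139685056-139685176, both at 6.17. Rab24 at chr13:55320454-55320632 had 5.91 and Tbc1d15 at chr10:115217645-115219214 had 5.70 in the authors' deposited table.

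The most negative difference was in the 3′ untranslated region of Rab2a (chr4:8607127-8607304), at -4.22 with a fold enrichment of 34.1 in the authors' deposited table. Rab18 had -3.22, Tbc1d22b (chr17:29605726-29605905) -3.02, Rab1b (chr19:5099917-5100272) -2.70 and Tbc1d2b (chr9:90229004-90238332) -2.36 in the authors' deposited table. Rab1b, Rab2a, Rab18 and Rab33b of the endoplasmic reticulum and Golgi held 4 of the 7 negative peaks. In the same group Rab6b held 2 positive peaks and Rab18 held 1, and its other peaks were not called. Called or not, Rab1b and Rab43 had 3 peaks each and Rab6b and Rab18 had 2 each. Rab1a, Rab2a, Rab6a and Rab33b had 1 each. Over all peaks 9.62% were called negative, a share of peaks and not of negative calls, and the sign of this group's peaks was not tested. Rab18 and Tbc1d1 were the 2 genes with called peaks of both signs. The highest fold enrichments in the authors' deposited table were 40 in Rab24 (chr13:55320217-55320395), the 34.1 in Rab2a, 32.9 in Rab7b (chr1:131713053-131713232), 28.8 in Rab8b (chr9:66847498-66847767) and 25.9 in both Tbc1d9 (chr8:83242543-83249571) and Tbc1d22b (chr17:29606385-29606565). Of these only the peak in Rab2a was called.

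Set against input RNA, 16 of the 30 positive peaks lay in members that did not pass there, among them Rab7, Rab5c, Rab21, Rab31, Tbc1d15 and Tbc1d31. Another 12 lay in members that fell and 2 in Rab5b, which rose. Of the 7 negative peaks 5 lay in members that fell and 2 in members that rose, Rab33b and Tbc1d22b. These counts were not set beside the number of member peaks in each input class, so they do not show where calls were more frequent. Over all peaks 36.5% were called positive and 9.62% negative. A link between peak and input changes was not tested. The members without a peak numbered 21, with a median level of 1.75 FPKM against 8.08 FPKM for the 54 members with a peak. Rab12 at 38.5 and Rab9 at 20.4 FPKM were the most abundant members without one.

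Many peaks carried values on a grid. Of the 91 member peaks in the authors' deposited table, 42 (46.2%) had a fold enrichment that was a whole multiple of 1.175, as did 40.01% of all peaks. Values were taken as equal when they matched at 3 significant digits. Among the peaks named for the highest fold enrichment, those of Rab24, Rab2a, Rab7b, Tbc1d9 and Tbc1d22b lay on this grid. That of Rab8b did not. The Rab2a peak also had the most negative called difference. Of the member peaks on this grid 9 were called (21.4%), beside 20.2% of all peaks on it, and of the 49 off it 28 (57.1%), beside 63.5%. The log2 difference equalled the log2 of a whole number from 1 to 5 in 23 member peaks, 0 of which were called, and in 3150 of all peaks, 50 of which were called. The part of low read numbers in these values was not tested. Of the 91 peaks 90 overlapped the RefSeq span of their gene, the exception being a peak of Rab35, and the 2 peaks of Tbc1d8 overlapped each other almost wholly.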

How the data were processed

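Fragmented, rRNA-depleted RNA was made into strand-specific libraries before and after ac4C precipitation, per the labels' protocols. Per the submitters' processing notes, fastp, FastQC, HISAT2, HOMER and mm10 were used; the sources used here name no peak caller, counter, strand setting or annotation. The authors deposited FPKM values for the 6 input libraries and, per gene, their own log2 change with p-values. Per the file headers, the authors' peak table holds a ratio (fold enrichment), a log2 difference, and log10 p scores kept as a score because they go beyond the usual range of p. IP levels per library were not analysed here.

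Since FPKM values of a gene step by the worth of 1 read (tolerance 0.0001), fragments were recovered for all 14852 genes. For each gene these are the smallest whole numbers that keep its ratios between libraries. True counts may be a common multiple of them, above all in genes with few fragments. Recovered fragments totalled 21583201, 21900044 and 20682920 (control libraries) against 24290219, 30159427 and 22201704 (cisplatin libraries). They cover counting error only. No library repeated another (chi-square per gene 2.36 to 3.13 within control, 7.72 to 15.9 within cisplatin). Correlations of log2 values were 0.989 to 0.996 within and 0.833 to 0.847 between groups.

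Genes with at least 1 FPKM in 3 libraries were tested with limma 3.58.1 (R 4.3.3; lmFit, trended eBayes) on log2(FPKM + 1), 3 cisplatin against 3 control input libraries, Benjamini-Hochberg adjusted over all tested genes, threshold 0.05. The procedure was tested on simulated data. Role groups and lists are described by counts and medians, with no test. Deviations of libraries with the same replicate number correlated at 0.097, -0.12 and 0.043, so the numbers were not taken to pair the libraries.

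Members, lists and the rule for named genes were chosen with earlier results of these data known. The rule gave library values for the 6 Rab and 4 TBC1D genes with the largest called changes in each direction (groups not overlapping, higher mean at least 5 FPKM), the 6 and 3 most abundant, all that did not pass, paralogue sets, up to 3 genes per partner list (1 of them is not reported here), and 5 peaks per kind. RefSeq tables of GRCm38.p6 (which mm10 is built on) provided spans for 75 of 75 members and promoters for 61. Of the 75 members 36 overlap another RefSeq gene and 12 a protein-coding one, whose reads could not be told apart without the counting rule. Alternatives were other pseudocounts, filters, scalings and tools, the replicate block, libraries left out and stricter peak limits.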

Additional observations from a re-analysis of the deposited data

How the results depend on the processing

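Of the 47 called members, 42 kept their call in all 14 settings in which they were tested, and Rab14, Rab17, Rab20, Tbc1d22a and Tbc1d8b lost it in some. Rescaling added 7 calls (Rab11a, Rab13, Rab27b, Rab31, Tbc1d13, Tbc1d17 and Tbc1d19) and voom 5 (Rab11a, Rab27b, Tbc1d13, Tbc1d17 and Tbc1d19), all lower in cisplatin. The median change stayed negative for both families in every setting. For Rab genes it was -0.20 with no filter, -0.34 with libraries rescaled to a common FPKM sum and -0.35 with limma-voom on recovered reads, and -0.21 to -0.27 over single libraries left out. For TBC1D genes it was -0.26 with a pseudocount of 0.1, -0.28 rescaled and -0.32 with voom, where the median of all genes was -0.093 (rescaled) and -0.066 (voom). Relative to the median of all genes, the Rab median was -0.252 in the main fit, -0.251 rescaled and -0.289 with voom. The TBC1D median was -0.205, -0.191 and -0.252 on the same footing. The 5 FPKM filter left 6 higher Rab genes and 5934 called genes in all, because fewer genes were tested. With no filter 5 TBC1D genes were higher. No member tested in the main fit gained a call there, so the added calls lay in members that the main filter left out. Over single libraries left out 3 to 5 were higher, the 5 without cisplatin replicate 2, which added Tbc1d14 and Tbc1d15. Why these calls depended on that library was not tested.

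The replicate block called 9 higher and 22 lower Rab genes, 3 higher and 13 lower TBC1D genes and 9276 genes in all. It ended the call of Rab20, added Tbc1d17 and changed no other member call. The replicate numbers are shared labels only.

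Some members that did not pass changed sign. With quantile normalization Rab21 was at -0.045, Rab5c -0.099, Rab7 -0.082, Tbc1d15 -0.043, Tbc1d23 0.071 and Tbc1d31 -0.080. Rescaled, Rab21 was at -0.081, Rab22a -0.045, Rab23 -0.076, Rab5c -0.030, Rab7 -0.024, Tbc1d10a -0.078 and Tbc1d31 -0.083. With voom, Rab21 was at -0.054, Rab22a -0.016, Rab23 -0.058, Tbc1d10a -0.049 and Tbc1d31 -0.052. Over single libraries left out, Rab21 ranged from -0.025 to 0.067, Rab23 from -0.028 to 0.057, Rab31 from -0.026 to 0.018, Tbc1d10a from -0.046 to 0.076, Tbc1d23 from -0.072 to 0.010 and Tbc1d31 from -0.029 to 0.052. The cause was not tested. All member peak counts, positive 21 to 30 and negative 6 to 7, stayed within 1.5 times, including without peaks on the enrichment grid, a setting chosen after seeing the data. Depth limits the members under 1 FPKM, of which Rab38 had 3 and 1 fragments as recovered.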
